A study of Mus musculus with 2 samples.

Results

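The 7 main alpha-type and beta-type globin genes of the mouse, together with Alas2 and Klf1, were followed in adrenal glands of newborn mice. The genes were chosen by symbol through their Ensembl identifiers, and 9 of the 10 named symbols matched a row among 43346 Ensembl genes; Ahsp, whose product is the alpha-hemoglobin stabilizing protein, was not analysed here. Total RNA had been sequenced from B6NCrl mice at postnatal day 0. Each of the 2 libraries came from the 2 adrenals of 1 pup, pup 2 and pup 1, and both pups carry the same number of a pregnant animal in their labels. Sex was not collected, no treatment or allele is given, and each library started from 10 ng of RNA with spike-ins added. Both libraries form 1 group, so there was no contrast to test, and the values compare 2 pups (n = 2). For that reason no p-value is given.

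Hemoglobin is a tetramer of alpha-type and beta-type globin chains, each holding a heme. In the mouse, primitive red cells of the yolk sac use the embryonic chains of Hba-x, Hbb-y and Hbb-bh1, and definitive red cells of the fetal liver and later the bone marrow use the adult chains of Hba-a1, Hba-a2, Hbb-bs and Hbb-bt. This change of chains is called globin switching. Within each cluster the embryonic genes lie nearest the distant enhancers and the adult genes further away. Alas2 makes the erythroid form of the enzyme that starts heme synthesis, and Klf1 is an erythroid transcription factor that binds CACCC boxes and is needed for adult beta-globin transcription. The adrenal gland is not a blood-forming organ, and its cortex makes steroids while its medulla makes catecholamines.

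The coding sequences show which genes short reads can tell apart. The first 60 coding bases of an adult and an embryonic gene of each cluster are printed below from GENCODE M21 transcripts on mm10, 5′ to 3′, with capitals where the embryonic gene differs from the adult gene of its cluster. The alpha-type genes are on the plus strand of chromosome 11 and the beta-type genes on the minus strand of chromosome 7.
Hba-a2: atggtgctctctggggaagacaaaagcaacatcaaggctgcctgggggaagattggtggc
Hba-x: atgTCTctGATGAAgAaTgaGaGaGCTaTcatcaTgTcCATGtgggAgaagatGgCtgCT
Hbb-bs: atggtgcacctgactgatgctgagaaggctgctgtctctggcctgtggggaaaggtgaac
Hbb-y: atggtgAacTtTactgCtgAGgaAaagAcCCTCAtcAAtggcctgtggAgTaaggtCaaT
Hbb-bh1: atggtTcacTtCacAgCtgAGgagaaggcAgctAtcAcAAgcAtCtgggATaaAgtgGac
In this stretch Hba-x differed from Hba-a2 at 28 bases, Hbb-y from Hbb-bs at 19 and Hbb-bh1 from Hbb-bs at 18. Over the whole coding sequence without the stop codon, Hba-x and Hba-a2 were 61.5% identical over 426 bases. Hbb-y and Hbb-bs were 74.4% identical, and Hbb-bh1 and Hbb-bs 73.9% identical, over 441 bases. The embryonic genes shared no 100-base window with another gene.

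The adult copies are a different case, and their first 60 coding bases were identical within each pair. Hba-a1 and Hba-a2 differed at 1 coding base, T381C, and Hbb-bs and Hbb-bt at 1, C417T. Positions count from the A of the start codon, the first letter is the base of Hba-a2 or Hbb-bs, and the second that of Hba-a1 or Hbb-bt. Neither difference changes the residue, at codons 127 and 139. The 31 bases around each difference are shown because they hold the only coding base at which a read can tell the copies apart, with the differing base in capitals.
Hba-a2: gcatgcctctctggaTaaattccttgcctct
Hba-a1: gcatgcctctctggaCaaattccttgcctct
Hbb-bs: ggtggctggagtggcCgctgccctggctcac
Hbb-bt: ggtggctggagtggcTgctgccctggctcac
Of the 100-base windows of the main coding transcript, 56.5% of those of Hba-a1 and 74.5% of those of Hba-a2 were shared with the other alpha copy. For the beta genes, 62.6% of the windows of Hbb-bs and 54.8% of those of Hbb-bt were shared with the other copy. The remaining windows lie around that coding base or in untranslated ends, so the level of a single adult gene is less certain than the sum of its pair. These windows are from GENCODE M21, where the coding transcript of Hbb-bs has 628 bases. The deposited version has 778 bases, and its shared part was not measured.

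**Figure D1:**
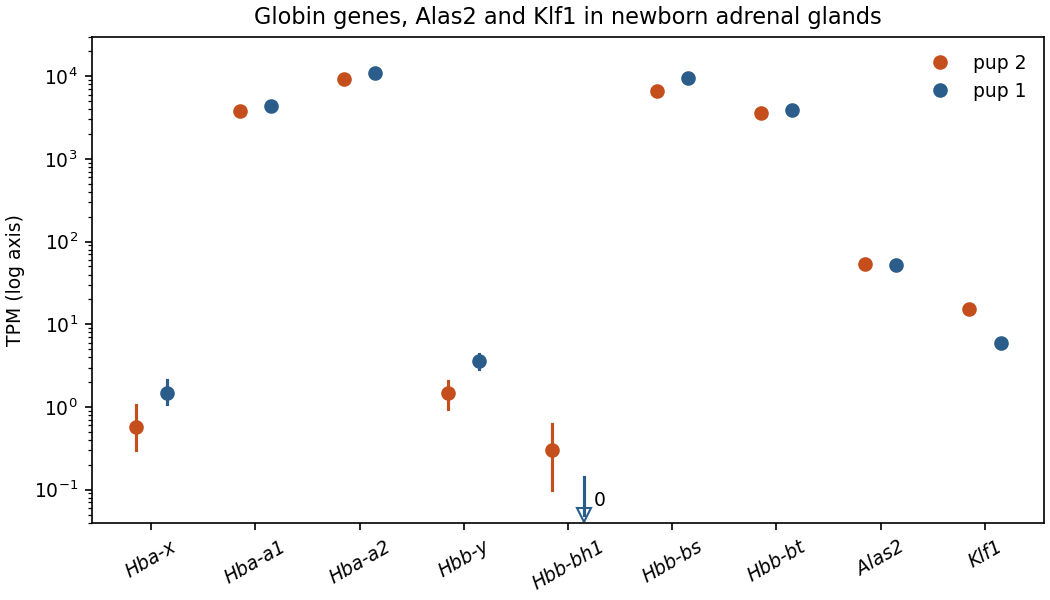
Level of each gene as deposited TPM (vertical log axis) in pup 2 and pup 1. Points are single libraries, bars are the quantifier's deposited intervals, and the arrow marks Hbb-bh1 in pup 1, which was at 0 TPM. The 4 adult globins lie between 3579 and 10946 TPM and the 3 embryonic globins between 0 and 3.62 TPM.

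Levels are given in TPM, the transcript abundance scaled for transcript length and to a fixed total in each library. Hba-a2 (ENSMUSG00000069917.7, chr11:32296489-32297298, plus strand), an adult alpha chain gene, was the highest member with 9260 TPM in pup 2 against 10946 TPM in pup 1 (mean 10103 ± 1192, SD, n = 2). Of the 9 genes, 7 had at least 1 TPM in both pups. Hba-a2 stood at rank 8 of all Ensembl genes in both pups. Hba-a1 (ENSMUSG00000069919.7, chr11:32283511-32284465, plus strand), the neighbouring copy, had 3746 TPM in pup 2 and 4408 in pup 1 (mean 4077 ± 468, SD, n = 2), at ranks 23 and 20. The 2 alpha genes differed by 2.47-fold in pup 2 and 2.48-fold in pup 1, the same order and nearly the same proportion in each library.

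Hbb-bs (ENSMUSG00000052305.5, chr7:103826534-103828096, minus strand), the higher of the adult beta chain genes, had 6715 TPM in pup 2 against 9542 TPM in pup 1 (mean 8128 ± 1999, SD, n = 2). It stood at rank 12 in pup 2 and 9 in pup 1. Hbb-bt (ENSMUSG00000073940.3, chr7:103812524-103813996, minus strand) had 3579 TPM in pup 2 and 3874 in pup 1 (mean 3726 ± 208, SD, n = 2), at ranks 25 and 22. In the order of mean levels, Hba-a2 and Hbb-bs differed by less than the SD of Hbb-bs, and Hba-a1 and Hbb-bt by less than the SD of Hba-a1. Hbb-bs and Hba-a1 were further apart than their SDs, and in each pup both of the higher genes were above both of the lower ones. Below them came Alas2, Klf1, Hbb-y, Hba-x and Hbb-bh1, in this order in both pups. Hbb-y averaged 2.55 ± 1.52 TPM and Hba-x 1.03 ± 0.629 TPM (SD, n = 2), a difference within the SD of Hbb-y.

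For the counts of the adult globins, the quantifier's own uncertainty in dividing reads was small beside the difference between pups. It does not cover other choices such as transcript length. With the length of the longest coding transcript, the mean share of Hba-a2 in the adult alpha pair went from 71.2% to 76.9%. The posterior SD of the count was 279 of 138096 counts for Hba-a2 in pup 2, or 0.202%, and 350 of 200936 counts in pup 1, or 0.174%. For Hba-a1, with the same SDs on 54653 and 79372 counts, it was 0.511% in pup 2 and 0.441% in pup 1. Hbb-bs and Hbb-bt shared an SD of 329 counts in pup 2 and 400 in pup 1. The SD was the same for both partners of a pair, between which reads are divided, and it was 0 for the embryonic genes and Klf1. For the 4 adult globins the deposited TPM lay above the upper end of its own deposited interval in both pups, as with Hba-a2 in pup 2 at 9260 TPM against an interval of 9038 to 9158. These intervals surround the deposited posterior mean TPM, which was 9098 in pup 2 and 10789 in pup 1 for Hba-a2, and the posterior mean gave the same order of genes.

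Embryonic chains were present at traces. Hbb-y (ENSMUSG00000052187.3, chr7:103851749-103853216, minus strand), the embryonic epsilon-type gene, had 1.47 TPM in pup 2 (deposited interval 0.952 to 2.05) and 3.62 TPM in pup 1 (2.85 to 4.39). These levels stood on 27 counts in pup 2 and 82 counts in pup 1. Hba-x (ENSMUSG00000055609.4, chr11:32276400-32278116, plus strand), the embryonic zeta-type gene, had 0.58 TPM in pup 2 (0.302 to 1.04) and 1.47 TPM in pup 1 (1.09 to 2.10), from 11 and 39 counts. Both were lower in pup 2, and for both the deposited intervals of the pups did not overlap.

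Hbb-bh1 (ENSMUSG00000052217.5, chr7:103841637-103843164, minus strand), the other embryonic beta-type gene, was detected in pup 2 alone. It had 0.30 TPM there, from 5 counts (0.0985 to 0.628), and 0 counts in pup 1, where the deposited interval reached 0.143 TPM. Its scaled count was 1.57-fold higher in pup 2 when pup 1 is set at 3 counts, the limit that a count of 0 allows. That value takes the 5 counts of pup 2 as exact and is no lower bound. The wider exact 95% interval of the ratio of scaled counts went down to -0.21 on the log2 scale and so included no difference. Hbb-bh1 was thus not separable between the pups at this depth.

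**Figure D2:**
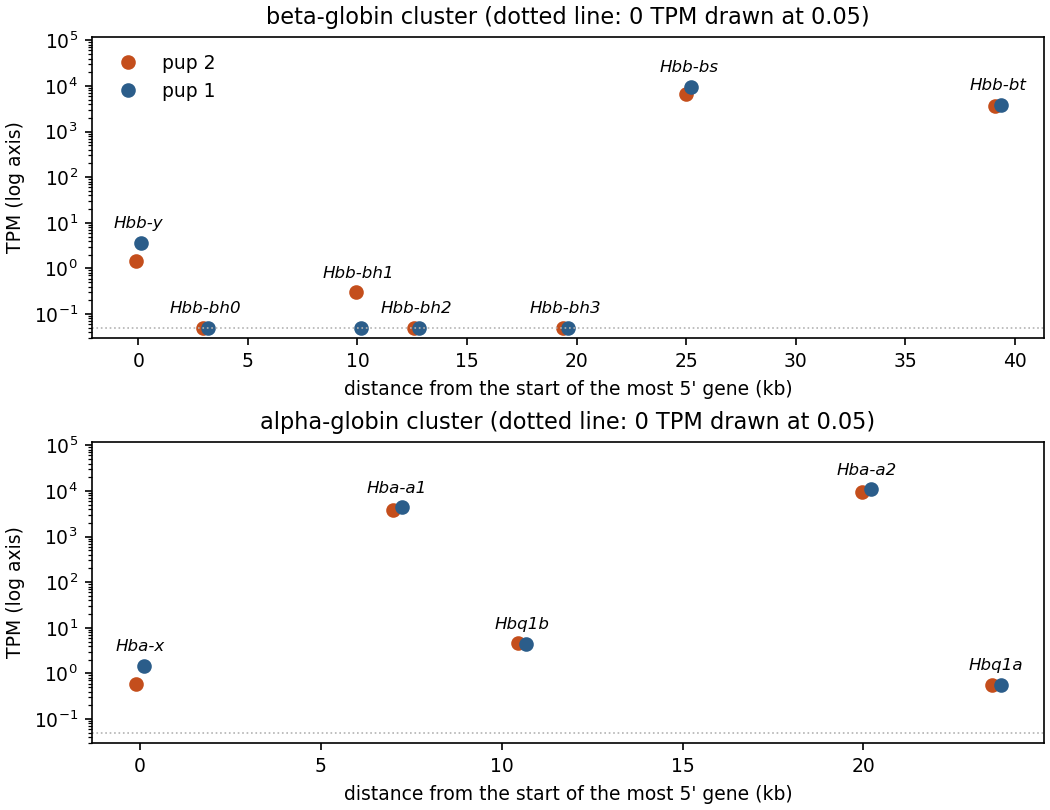
Level in TPM (vertical log axis) of the globin genes of each cluster against the distance of their starts in kb from that of the most 5′ gene, for pup 2 and pup 1. Genes at 0 TPM are drawn on the dotted line at 0.05; the adult genes lie at the far side of the beta cluster and on both sides of Hbq1b in the alpha cluster.

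Position along the clusters and level went together only in part. In the beta cluster, counted from the start of Hbb-y, Hbb-bh1 began at 10.1 kb, Hbb-bs at 25.1 kb and Hbb-bt at 39.2 kb. The pseudogenes Hbb-bh0 and Hbb-bh3 and the gene Hbb-bh2, which lie between Hbb-y and Hbb-bs, had 0 counts in both pups. In the alpha cluster, Hba-a1 began 7.11 kb and Hba-a2 20.1 kb from the start of Hba-x. The theta-type genes follow each alpha gene, Hbq1b at 10.6 kb with 4.54 TPM in pup 2 against 4.42 TPM in pup 1, and Hbq1a at 23.7 kb with 0.55 TPM in pup 2 and 0.57 in pup 1. Hbq1b was thus above Hba-x in both pups but far below Hba-a1 and Hba-a2, although it lies between these adult alpha genes.

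How far the embryonic chains had given way to the adult ones was read as the ratio of their levels within each chain type. Per length, embryonic over adult beta-type TPM was 0.0172% in pup 2 and 0.0270% in pup 1 (mean 0.0221 ± 0.00692, SD, n = 2). For the alpha type it was 0.00446% in pup 2 and 0.00957% in pup 1 (mean 0.00702 ± 0.00362, SD, n = 2). Both shares were lower in pup 2, and the embryonic share was higher among beta-type than among alpha-type transcripts in each pup.

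Counting error was set beside these shares with exact Clopper-Pearson 95% intervals, which cover counting error only. Hbb-y and Hbb-bh1 together made 32 of 189954 beta-type counts in pup 2, or 0.0168% (0.0115 to 0.0238), and 82 of 305635 in pup 1, or 0.0268% (0.0213 to 0.0333). Hba-x made 11 of 192760 alpha-type counts in pup 2, or 0.00571% (0.00285 to 0.0102), and 39 of 280347 in pup 1, or 0.0139% (0.00989 to 0.0190). For both chain types the intervals of the pups overlapped at their ends. Hbb-bh1 alone was 0.00263% of beta-type counts in pup 2 (0.000855 to 0.00614), and its 0 of 305635 counts in pup 1 have an exact upper bound of 0.00121%, with 3 counts of that total being 0.000982%.

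**Figure D3:**
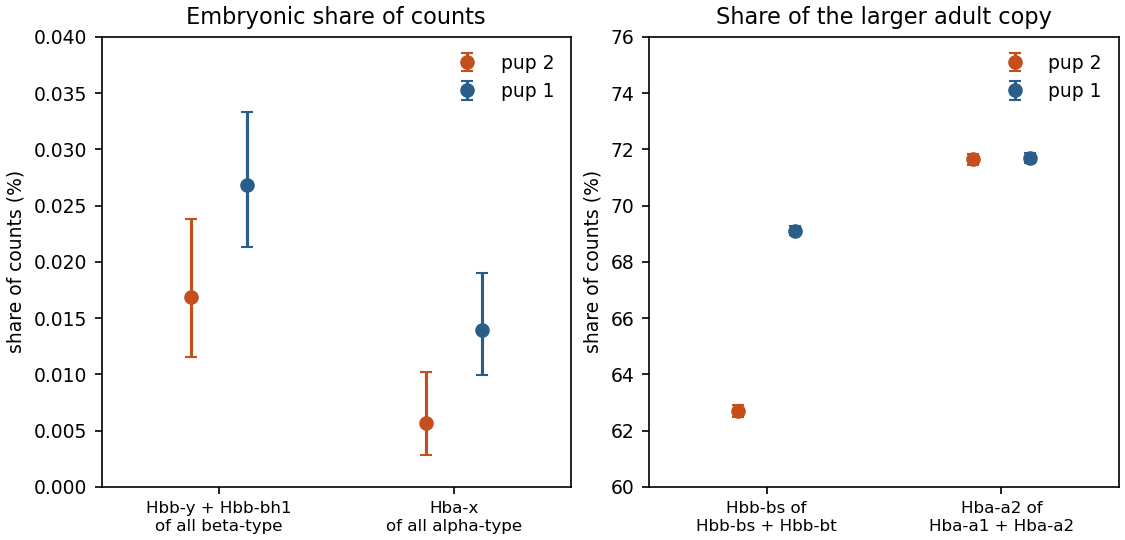
Left, the embryonic share of counts (%) for beta-type and alpha-type genes; right, the share (%) of the larger adult copy within each pair, on an axis that starts at 60, with pup 2 left of pup 1. Points are single libraries and bars exact 95% intervals of counting error; the share of Hba-a2 is 71.6% in pup 2 and 71.7% in pup 1, while that of Hbb-bs is 62.7% in pup 2 and 69.1% in pup 1.

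Within the adult pairs, the proportion of the alpha genes was nearly the same in both pups and that of the beta genes was not. Hba-a2 held 71.2% of adult alpha TPM in pup 2 and 71.3% in pup 1 (mean 71.2 ± 0.0659, SD, n = 2). Hbb-bs held 65.2% of adult beta TPM in pup 2 and 71.1% in pup 1 (mean 68.2 ± 4.17, SD, n = 2). In counts, Hbb-bs had 62.7% of the pair in pup 2 (exact 95% interval 62.5 to 62.9) and 69.1% in pup 1 (68.9 to 69.3), intervals that did not overlap. Reads that carry no molecular identifier need not be separate molecules, and with 1 library per pup the spread between animals behind this difference cannot be given.

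The sum over chains was nearer to balance. Alpha-type over beta-type TPM was 1.26 in pup 2 and 1.14 in pup 1 (mean 1.20 ± 0.0842, SD, n = 2). This excess of alpha depended on the division by length, since the same ratio in counts was 1.01 in pup 2 and 0.917 in pup 1. The 7 globins together made up 2.33% of all TPM in pup 2 and 2.88% in pup 1 (mean 2.60 ± 0.387, SD, n = 2), and 0.938% and 1.41% of the counts of Ensembl genes. Adult alpha genes summed to 13006 TPM in pup 2 against 15354 TPM in pup 1, adult beta genes to 10294 TPM in pup 2 and 13415 in pup 1, and the embryonic genes to 2.35 TPM in pup 2 against 5.09 TPM in pup 1. In bulk tissue, fewer cells of a type and less RNA per cell cannot be told apart.

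**Figure D4:**
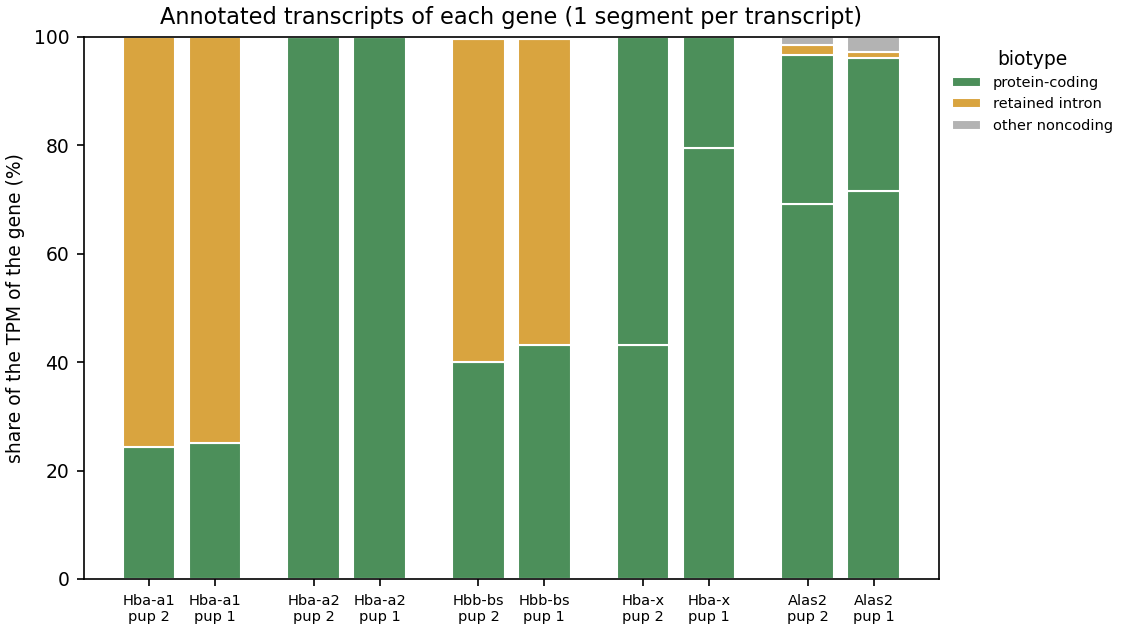
Share (%) of the TPM of each gene assigned to its annotated transcripts, 1 bar per gene and pup with pup 2 left of pup 1, for the members with more than 1 transcript. Green is protein-coding, orange retained intron and grey other noncoding; retained-intron transcripts take 75.6% of Hba-a1 in pup 2 and 75.0% in pup 1, and 0% of Hba-a2.

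The quantifier assigned reads to transcripts very differently for the near-identical alpha genes. For Hba-a1, the annotated retained-intron transcript ENSMUST00000142555.1 took 75.6% of the TPM in pup 2 and 75.0% in pup 1, with 2831 TPM and 3306 TPM, and the coding transcript 24.4% and 25.0%. The matching retained-intron transcript of Hba-a2 had 0.42 TPM in pup 2 and 0.33 in pup 1, and the coding transcript 100% of the gene in both. None of the 395 windows of 100 bases of the Hba-a1 retained-intron transcript was unique to it, and of the 455 windows of the Hba-a2 coding transcript 20 were, or 4.40%. Of those 395 windows, 71.9% were shared with another transcript of Hba-a1 and 75.7% with a transcript of Hba-a2. The TPM on the Hba-a1 retained-intron transcript need therefore not rest on intron reads. How reads were divided among these transcripts was not tested.

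Hbb-bs had a like division, with 40.0% of its TPM in pup 2 and 43.2% in pup 1 on the main coding transcript and 59.5% and 56.5% on a retained-intron transcript. That transcript has 549 bases as deposited and 344 in GENCODE M21. Of its 245 windows in GENCODE M21, 78.4% were shared with another transcript of Hbb-bs. Hbb-bt has 1 annotated transcript, so intron reads of that gene have no transcript to go to. The levels of Hba-a1 and Hbb-bs thus include TPM that the quantifier assigned to transcripts not annotated as coding. Those of Hba-a2 and Hbb-bt hardly include such TPM. For the alpha genes the shared windows leave this assignment uncertain. With counts divided instead by the effective length of the longest coding transcript, a setting chosen after seeing these values, Hba-a2 held 76.9% of the adult alpha pair in both pups. Hbb-bs then held 59.9% in pup 2 and 66.6% in pup 1, so that Hbb-bs stayed the larger copy and its share stayed lower in pup 2. Alas2 was divided over coding transcripts, 69.1% in pup 2 and 71.5% in pup 1 on the first and 27.6% and 24.6% on the second.

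Alas2 (ENSMUSG00000025270.9, chrX:150547375-150570638, plus strand), the erythroid aminolevulinate synthase, had 53.9 TPM in pup 2 (deposited interval 51.1 to 55.6) and 51.7 TPM in pup 1 (49.1 to 53.5). Its mean was 52.8 ± 1.56 TPM (SD, n = 2), the narrowest SD of the 9 genes relative to the mean, and the intervals of the pups overlapped. Klf1 (ENSMUSG00000054191.7, chr8:84901928-84905291, plus strand) had 15.2 TPM in pup 2 (13.8 to 16.0) and 5.91 TPM in pup 1 (5.21 to 6.45), with a mean of 10.5 ± 6.54 (SD, n = 2). Klf1 was higher in pup 2, where 6 of the 7 globins were lower and Hbb-bh1 was not, and its intervals did not overlap. Klf1 over Alas2 was 0.281 in pup 2 and 0.114 in pup 1.

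The direction between pups was taken from counts scaled by TMM, as log2 of pup 2 over pup 1 with exact 95% intervals. Among the adult globins, the ratio was -0.91 for Hbb-bs (-0.92 to -0.90), -0.63 for Hba-a2 (-0.64 to -0.62), -0.62 for Hba-a1 (-0.64 to -0.61) and -0.50 for Hbb-bt (-0.51 to -0.48). All 4 were lower in pup 2 by less than 2-fold under this scaling, and higher in pup 2 under spike-in scaling. The embryonic genes were further apart but less precise, at -1.87 for Hba-x (-3.03 to -0.92) and -1.67 for Hbb-y (-2.37 to -1.04), and were also higher in pup 2 under spike-in scaling. Alas2 was at -0.32 (-0.39 to -0.25) and Klf1 at 0.97 (0.79 to 1.17).

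These ratios stand against a wide spread over all genes. Among the 13870 genes whose counts averaged 100 or more, 9.13% were over 2-fold apart between the pups, and 0 of the 6 members at that depth were. With DESeq2 size factors it was 9.11% of genes and 0 members, by library size 8.95% and 1 member, and by deposited TPM 12.2% and 1 member. That member was Klf1, at 0.97 by TMM, 1.08 by library size and 1.36 by deposited TPM. Under spike-in scaling 98.4% of genes and all 6 members were over 2-fold apart. Among the 18670 genes whose counts averaged 10 or more, 15.8% were over 2-fold apart, 6.03% being higher in pup 2 and 9.76% higher in pup 1. Among the 8 members at that depth 2 were, Hba-x and Hbb-y, both lower in pup 2. A gene with few counts passes 2-fold more easily, and the median over members was -0.62, with 1 higher and 7 lower in pup 2, beside a median of 0.00 over all genes.

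The scaling decides these directions. Spike-in counts were 0.00250% of the library in pup 2 and 0.0138% in pup 1, and scaling by them moved the median of all genes to 2.57. Under that scaling all 8 members were higher in pup 2, at 1.94 for Hba-a2, 1.66 for Hbb-bs and 3.54 for Klf1. A scaling shifts all genes alike, so the 6 globins whose counts averaged 10 or more were below the median of all genes and Klf1 above it whichever factor was used. In deposited TPM the median of all genes was 0.39 and Alas2 was at 0.06, so its direction turned there as well. The directions given below for gene lists are by TMM unless another scaling is named, and under spike-in scaling the median of each list was above 0. By TMM, 9368 of the 18670 genes averaging 10 counts or more were higher in pup 2 and 9302 lower. By deposited TPM, 17512 of all 43346 Ensembl genes were higher in pup 2 and 7575 lower. By library size the median of all genes was 0.11.

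**Figure D5:**
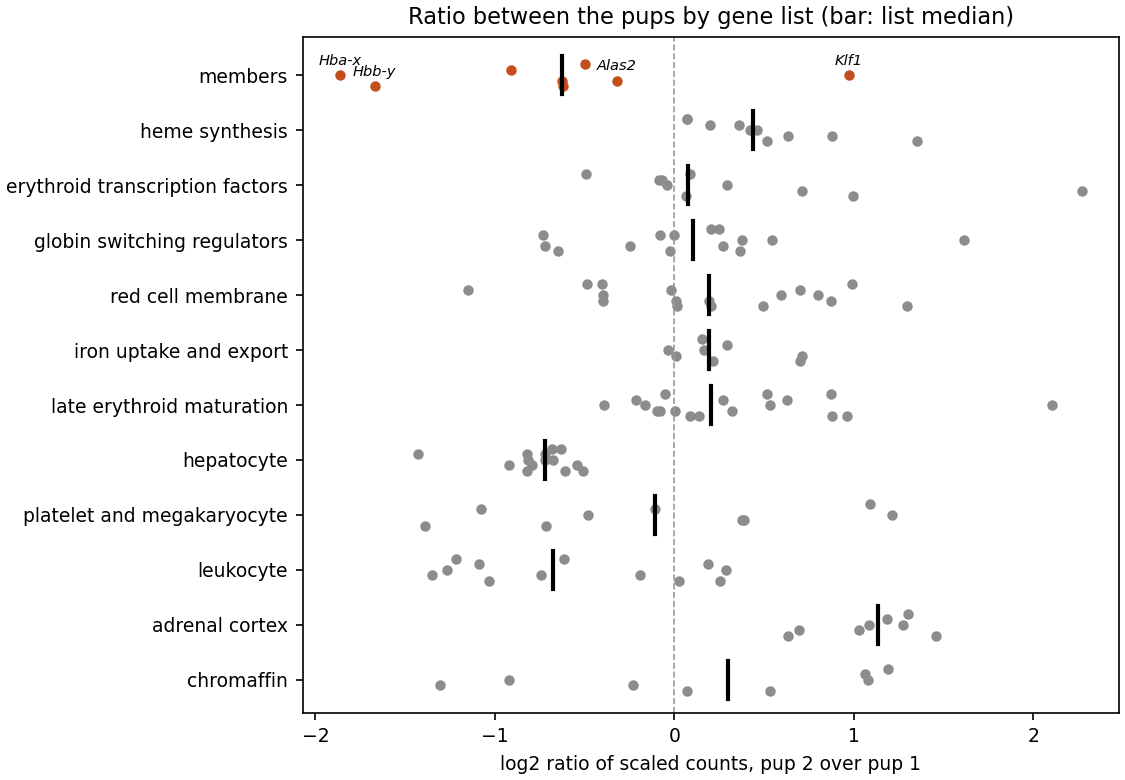
Log2 ratio of TMM-scaled counts, pup 2 over pup 1 (horizontal axis), for each gene averaging 10 counts or more, in the members (orange) and in other gene lists (grey), with bars at list medians. The members have a median of -0.62, the hepatocyte list -0.72, heme synthesis 0.44 and the adrenal cortex list 1.13; under spike-in scaling the median of each list is above 0.

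Heme synthesis genes went the other way from the adult globins by TMM. All 10 listed genes of the shared pathway were higher in pup 2 under each scaling run, with a TMM median of 0.44 and a summed level of 739 TPM in pup 2 against 376 TPM in pup 1. Alas1, the form of the first enzyme made in most tissues, had 208 TPM in pup 2 and 61.0 in pup 1 and was the furthest apart, at 1.35. Urod, the uroporphyrinogen decarboxylase, had 127 TPM in pup 2 against 93.8 TPM in pup 1. Alad, the enzyme that joins aminolevulinate molecules, had 101 TPM in pup 2 against 49.8 TPM in pup 1. These enzymes make heme for steroid-making cytochromes as well as for hemoglobin, and Alas1 was above Alas2 in both pups.

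Of the 10 erythroid transcription factors, 6 were higher and 4 lower in pup 2 by TMM, with a median of 0.08, while 9 were higher when scaled by library size and all 10 by spike-ins. The median of all genes was 0.11 by library size and 2.57 by spike-ins. Gfi1b, a repressor of erythroid and megakaryocyte precursors, had 5.78 TPM in pup 2 and 0.91 in pup 1, a log2 ratio of 2.27. Gata1, the factor that binds GATA sites in erythroid genes, had 4.15 TPM in pup 2 against 1.61 TPM in pup 1, at 1.00. Tal1, its partner, had 1.04 TPM in pup 2 and 0.49 in pup 1. The cofactors Lmo2 and Ldb1, which many tissues use, were more abundant and closer, with 28.3 TPM and 56.7 TPM in pup 2 and 22.0 TPM and 46.2 TPM in pup 1. By TMM their log2 ratios were -0.04 and -0.08, so both are among the 4 counted as lower in pup 2. The lowest ratio was -0.49, for Cbfa2t3, a corepressor in the complex of Gata1 and Tal1.

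The 14 regulators of globin switching whose counts averaged 10 or more were split by TMM, 7 higher and 7 lower in pup 2, with a median of 0.10. By library size 10 were higher and 4 lower, by deposited TPM 11 higher and 3 lower, and by spike-ins all 14 higher. The medians of all genes under these scalings were 0.11, 0.39 and 2.57. Bcl11a, a repressor of embryonic beta-type globin genes in the mouse, had 3.73 TPM in pup 2 against 1.96 TPM in pup 1. Zbtb7a, which represses fetal globin in human red cells, had 36.5 TPM in pup 2 and 25.1 in pup 1. Sox6, which works with Bcl11a on Hbb-y, had 1.91 TPM in pup 2 against 2.69 TPM in pup 1, the lowest ratio of the list at -0.73. Myb, a factor of proliferating precursors, was furthest to the other side at 1.62, with 1.58 TPM in pup 2 and 0.39 in pup 1. Lin28b, an RNA-binding protein of fetal blood formation, had 0.18 TPM in pup 2 against 0.23 TPM in pup 1. Most of these genes are expressed in many cell types, and bulk levels do not say in which cells they were.

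More genes of the red cell membrane and late maturation lists were higher than lower in pup 2 by TMM, and Rhd is in both lists. Bulk levels do not say in which cells these genes were expressed. Of 17 red cell membrane genes, 11 were higher and 6 lower in pup 2, with a median of 0.19, a highest ratio of 1.30 for Rhag, an ammonium channel, and a lowest of -1.15 for Dmtn, an actin-bundling protein. Of 18 late maturation genes, 12 were higher and 6 lower in pup 2 by TMM, with a median of 0.21. By library size 15 were higher and 3 lower, and by deposited TPM 17 higher and 1 lower. The median of all genes was itself 0.11 by library size and 0.39 by deposited TPM. Among them was Prdx2, a peroxidase, with 759 TPM in pup 2 against 517 TPM in pup 1 but a TMM log2 ratio of only 0.09. Of 8 iron genes 7 were higher in pup 2 by TMM and the median of the list was 0.19. The ferritin genes Ftl1 and Fth1, which have pseudogene copies that can share reads, led with 3864 TPM and 2970 TPM in pup 2 and 2940 TPM and 1957 TPM in pup 1. Their TMM log2 ratios were 0.01 and 0.22. Of 8 genes of hemoglobin and heme clearance 2 were higher and 6 lower in pup 2 by TMM, with a median of -0.21, while 6 were higher by deposited TPM. Hp, the plasma haptoglobin that binds free hemoglobin, had 68.6 TPM in pup 2 and 83.1 in pup 1.

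Erythroid markers were also set against the adult globins. Per 1000 TPM of adult globin, Klf1 was 0.651 in pup 2 and 0.205 in pup 1, Gata1 0.178 and 0.0560, and Tfrc, the transferrin receptor, 0.567 and 0.231. Alas2 was 2.31 in pup 2 and 1.80 in pup 1. Each of these was higher in pup 2 relative to globin, which is not particular to them. In deposited TPM the median log2 ratio of all genes was 0.39, while the adult globins lay between -0.51 for Hbb-bs and -0.11 for Hbb-bt and Alas2 at 0.06. The levels behind Gata1 and Klf1 are low, and their cells of origin were not measured.

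Hepatocyte markers moved with the globins, and those of leukocytes and platelets did so only in part. All 14 hepatocyte genes were lower in pup 2 by TMM, DESeq2, library size and TPM and higher by spike-ins, at TMM log2 ratios from -1.43 to -0.51 with a median of -0.72, and summed to 2724 TPM in pup 2 against 3501 TPM in pup 1. Alb, the serum albumin gene, had 306 TPM in pup 2 and 414 in pup 1, and Afp, the fetal serum protein gene, 166 TPM in pup 2 against 220 TPM in pup 1. Per 1000 TPM of adult globin, the hepatocyte list was 117 in pup 2 and 122 in pup 1, and Alb 13.1 in pup 2 and 14.4 in pup 1. Of 12 leukocyte genes 4 were higher and 8 lower in pup 2 by TMM, with a median of -0.68, and summed levels of 775 TPM in pup 2 and 1245 in pup 1. The 4 that were higher included Ptprc, at 0.26, and Mpo, at 0.29. By deposited TPM 5 of the leukocyte genes were higher in pup 2, and by spike-ins all 12. Of 9 platelet genes 4 were higher and 5 lower in pup 2 by TMM, with a median of -0.11, and 5 were higher by library size or deposited TPM, and Pf4 per 1000 TPM of adult globin was 15.9 in pup 2 and 16.2 in pup 1. The part of these cells in the globin values was not tested.

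Markers of the gland itself were present, as the tissue label gives. The 8 adrenal cortex genes summed to 17440 TPM in pup 2 against 6538 TPM in pup 1, and all 8 were higher in pup 2 under every scaling run, their TMM median being 1.13. The 8 chromaffin genes summed to 3585 TPM in pup 2 and 1586 in pup 1, with 5 higher and 3 lower in pup 2. TPM and TMM values are relative, so a larger share of cortex RNA and a smaller amount of globin RNA in pup 2 cannot be told apart with 1 library per pup. Library totals were 40800539 counts in pup 2 and 41510071 counts in pup 1.

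The other globin genes of the genome were low except Cygb. Cygb, the cytoglobin gene of connective tissue cells, had 21.6 TPM in pup 2 against 22.0 TPM in pup 1. Mb, the muscle myoglobin gene, had 0.21 TPM in pup 2 and 1.09 in pup 1, and Ngb, the neuroglobin gene, 0.52 TPM in pup 2 against 1.68 TPM in pup 1. Of these genes the 5 whose counts averaged 10 or more, Hbq1a and Hbq1b among them, were lower in pup 2 by TMM, at a median of -0.48, and 1 was higher by deposited TPM and 4 by spike-ins. The pseudogene Hba-ps4 had 2 counts in pup 2 and 0 in pup 1.

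The promoters are printed because the adult and embryonic genes differed so far in level. Stretches from the RefSeq promoter table (GRCm38.p6) run 5′ to 3′ on the strand of the gene, with capitals where the motif CACCC, the CCAAT box, the motif GATAA, the ATAAA box or the motif TGACC was found on either strand. The first is 113 to 4 bases before the RefSeq start of Hba-a2, the second 122 to 10 bases before that of Hbb-y. The others are 30 bases each, beginning 94, 93 and 99 bases before the RefSeq starts of Hbb-bs, Hbb-bt and Hba-x. GENCODE M21, the source of the gene coordinates given above, has exons that reach further upstream, over 85, 73 and 200 of the bases before these 3 RefSeq starts. The stretches of Hbb-bs and Hba-x thus lie inside the genes as GENCODE bounds them, and that of Hbb-bt lies partly inside.
Hba-a2: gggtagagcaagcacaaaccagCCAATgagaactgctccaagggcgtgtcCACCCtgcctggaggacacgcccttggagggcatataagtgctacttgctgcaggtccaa
Hbb-y: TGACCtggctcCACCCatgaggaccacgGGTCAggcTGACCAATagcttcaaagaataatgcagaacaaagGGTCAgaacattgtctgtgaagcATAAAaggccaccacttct
Hbb-bs: gccaCACCCtggtaagggCCAATctgctca
Hbb-bt: gtaaCACCCtggcATTGGCCAATctgctca
Hba-x: gctcCACCCtgcaagccccctcccctctcc
They lie at chr11:32296379-32296488, chr7:103853217-103853329, chr7:103827993-103828022, chr7:103813987-103814016 and chr11:32276501-32276530.

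The adult alpha genes, which differed by 2.47-fold in TPM in pup 2, were identical over all 247 overlapping bases before their RefSeq starts. For Hba-a1, 161 of the bases before that start are annotated exon in GENCODE M21. CACCC, the core of the box that Klf1 binds, was found before the RefSeq start of all 6 globins with an entry, embryonic and adult alike, as in 52.0% of the 32851 promoters of the table over 250 bases. The longer form CCNCNCCC, in 45.9% of promoters, was found in Hbb-bs, Hbb-bt and Hba-x and overlapped CACCC in Hbb-bs and Hbb-bt. CCAAT, in 33.8% of promoters, was found in the 4 adult genes and Hbb-y but not in the 250 bases of Hba-x, and GATAA, in 22.6%, in all 6. ATAAA, in 37.3% of promoters, was found in Hba-x, Hbb-bt and Hbb-y.

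TGACC, the core of the repeats that nuclear receptors bind in embryonic globin promoters, was found in 35.2% of promoters. Hbb-y held 5 matches, of which 1 overlaps CCAAT in the printed stretch, and Hba-x 1. Among adult genes Hbb-bt held 1, and Hba-a1, Hba-a2 and Hbb-bs held 0. A match is a run of letters and no measure of binding, and these libraries hold no binding data.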

How the data were processed

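Gene and transcript tables of total RNA-seq from 2 libraries were used, and 0 columns of other samples were present. Per the file headers, the authors deposited expected counts, posterior mean counts with their SD, TPM with bounds (signal values, of an interval whose level is not stated), FPKM and the percent of a gene in each transcript. The text deposited with each library names mm10 and GENCODE M4; of the quantifier and strand handling the sources used here give nothing. Symbols, coordinates, biotypes and coding sequences came from GENCODE M21 (mm10), and promoters from RefSeq on GRCm38.p6. Spike-in rows and numbered rows (9.59e-05% of all counts for pup 2, 2.65e-05% for pup 1) were left out of library sizes.

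Counts were rounded, scaled by TMM in edgeR 4.0.16 (R 4.3.3) and set as log2 of pup 2 over pup 1 with 0.5 added, where counts averaged 10 or more. Intervals are exact binomial 95% intervals, and a count of 0 was bounded by 3 counts. No test was run, because both libraries form 1 group. Scripts were tested on simulated data and used python 3.11.15, numpy 2.4.6, pandas 2.3.3, scipy 1.17.1 and matplotlib 3.10.9. Alternatives were DESeq2 1.42.0 size factors, library size, spike-ins, TPM, FPKM, posterior means, other pseudocounts and count minimums, other TPM denominators, summed transcripts and leaving out each pup.

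The genes and lists were chosen with earlier results of these data known. Named genes were the chosen genes, the 4 highest of each list and any of the globin, transcription factor and switching lists. Genes named at the ends of a list's range were named after their values were seen. So were Prdx2, Tfrc, Alb, Afp, Pf4, Ptprc and Rhd where outside these. Hba-ps3, Fam132b and Ahsp had no match. Some genes that the rule takes are left out of the text.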

Additional observations from a re-analysis of the deposited data

How the results depend on the processing

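No paired analysis was possible because both libraries belong to 1 group. Of the alternatives run on levels and ratios of single genes, 92 stayed close to the reported value, 24 moved beyond the spread or interval and 8 changed sign. Part of these labels was fixed in advance. With 2 pups, either pup alone always lies within the SD around their mean, and summed transcripts restate the gene level. Levels in FPKM are in another unit than TPM. The number that stayed close is therefore no measure of robustness. Scaling by spike-ins gave log2 ratios of pup 2 over pup 1 of 1.95 for Hba-a1, 1.94 for Hba-a2, 0.70 for Hba-x, 1.66 for Hbb-bs, 2.07 for Hbb-bt, 0.90 for Hbb-y and 2.25 for Alas2, and deposited TPM gave 0.060 for Alas2; the cause was not tested. Among ratios and sums, 42 values stayed close and 11 moved, and there too leaving out a pup or summing transcripts could only stay close. Alpha-type over beta-type was 0.966 with expected counts or posterior mean counts, which are not divided by length, and 1.29 over the longest coding transcript. The share of Hba-a2 was 71.7% with either kind of count and 76.9% over the longest coding transcript, where that of Hbb-bs was 63.2%. Genes over 2-fold apart numbered 1266, against 2948 at a mean count of at least 10, 412 at a mean count of at least 1000, 7673 with no minimum and 13644 with spike-ins. Leaving out either pup gave embryonic over adult ratios of 0.0172 to 0.0270% for beta and 0.00446 to 0.00957% for alpha. Depth limited Hbb-bh1, with 5 counts in pup 2 and 0 in pup 1, and Hba-x, with 11 counts in pup 2.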
